A study of Mus musculus with 6 samples.

Results

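The 8 enzymes Alas1, Alas2, Alad, Uros, Urod, Cpox, Ppox and Fech and the transferrin receptor Tfrc were followed in RNA-seq of sorted bone marrow megakaryocytes (MKs). These 9 genes were taken by symbol from the 16579 genes of the deposited table, and all 9 were among the 12256 genes that passed the expression filter and were tested. Each of 6 libraries came from MKs that had been separated by fluorescence-activated cell sorting out of bone marrow, with mice 3 months old. In 3 libraries the mice were Becn1f/f, with both copies of Becn1 flanked by loxP sites and no Cre. The other 3 libraries were labelled Becn1f/f;Pf4-iCre, with the same floxed alleles and an improved Cre recombinase driven by regulatory sequence of Pf4, a platelet chemokine gene, so that deletion is limited to cells in which that driver has been active. The comparison asked how MK expression differs between the genotypes. Nothing in the sample labels ties replicates to separate mice or gives their sex, so the p-values measure the spread between these libraries.

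Heme is an iron-holding ring that carries oxygen in hemoglobin and electrons in the cytochromes of every cell. Its synthesis begins in the mitochondrion, where ALA synthase joins glycine to succinyl-CoA, passes through the cytosol, and ends back in the mitochondrion, where ferrochelatase inserts iron. ALA synthase has a housekeeping form, encoded by Alas1, and an erythroid form, encoded by the X-linked Alas2, and Tfrc brings in the iron by taking up transferrin from plasma. Red cell precursors make most of the heme of the body and carry the most Tfrc, and MKs share their bipotent progenitor and several of their transcription factors. The step between Alad and Uros was not analysed here.

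Alas2 and Alas1 differed most between the genotypes in the fit of all libraries, and each has its own control sequence. The 250 bases upstream of their annotated starts are shown 5′ to 3′ on the strand of the gene, from the RefSeq promoter table on GRCm38.p6, which gave a window for 8 of the 9 genes. In Alas2 (chrX:150547167-150547416, plus strand) capitals mark a match to the GATA motif (GATA with A or T before it and A or G after it) on the opposite strand at position -86, and 3 matches to the CACCC box, also on the opposite strand, at -40, -35 and -30. In 1 of 2 windows of Alas1 (chr9:106247731-106247980, minus strand) capitals mark 2 overlapping matches to the NRF1 core GCATGCGC on either strand, at -195 and -193. The same Alas1 window holds a CACCC box at -203, left in lower case. GATA1 and KLF1, which bind GATA motifs and CACCC boxes, are erythroid transcription factors, whereas NRF1 acts on promoters of respiratory and housekeeping genes.
Alas2 promoter: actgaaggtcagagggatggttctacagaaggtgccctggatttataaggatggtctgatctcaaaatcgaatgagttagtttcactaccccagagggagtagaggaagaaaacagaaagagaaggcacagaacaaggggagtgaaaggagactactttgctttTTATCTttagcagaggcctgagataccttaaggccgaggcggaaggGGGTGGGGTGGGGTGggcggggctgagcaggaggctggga
Alas1 promoter: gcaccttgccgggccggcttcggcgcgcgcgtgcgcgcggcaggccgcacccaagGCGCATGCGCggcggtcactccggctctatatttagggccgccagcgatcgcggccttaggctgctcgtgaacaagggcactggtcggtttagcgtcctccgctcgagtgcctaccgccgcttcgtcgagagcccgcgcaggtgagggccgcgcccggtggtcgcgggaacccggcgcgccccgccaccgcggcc

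Among 32851 promoter windows of this length in the table, searched on both strands, 26.5% held a GATA match, 52.0% a CACCC box and 2.3% the NRF1 core. In the windows of tested genes the shares were 17.7%, 57.4% and 4.2%. GATA matches were also found in the windows of Uros and Cpox, with 2 in each, and no GATA match was found in the windows of Alas1, Alad, Urod, Ppox or Tfrc. CACCC boxes were also found in windows of Alas1, Alad, Cpox and Tfrc, with 4 in Cpox. A match says that the letters are present and does not mark a bound site.

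A second kind of control acts on the mRNA. Iron regulatory proteins bind a small hairpin, the iron-responsive element (IRE), when iron is scarce. In the 5′ UTR of Alas2 this blocks translation, and in the 3′ UTR of Tfrc it protects the mRNA from decay. A search of the GENCODE M21 transcripts (GRCm38) for a C, 5 bases, CAGTG, 1 base and a further 5 bases able to pair with the first 5 (G-T pairs allowed) found 1 match in Alas2 and 4 in Tfrc, and none in the transcripts searched for the other 7 genes. Matches were present in 185 of 11890 tested genes (1.56%). Each is printed with 4 bases on either side, with T for U, and capitals mark the bulged C and the loop.
Alas2-201, 5′ UTR, bases 90 to 106: ggttCgtcctCAGTGCagggcaaca
Tfrc-201, 3′ UTR, bases 3321 to 3337: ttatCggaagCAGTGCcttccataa
Tfrc-201, 3′ UTR, bases 3700 to 3716: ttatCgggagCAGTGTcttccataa
Tfrc-201, 3′ UTR, bases 3765 to 3781: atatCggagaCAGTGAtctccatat
Tfrc-201, 3′ UTR, bases 3812 to 3828: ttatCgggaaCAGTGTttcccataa
The stems differ among the 4 Tfrc hairpins, though some share the pair of bases beside the loop. The CAGTG of the loop is common to all 5 because the search required it.

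The libraries held 16467560 to 17156728 counts each. Becn1, the targeted gene, was at 118 ± 9.37 CPM (counts scaled to library size with TMM factors, mean ± SD, n = 3) in Becn1f/f and 107 ± 2.74 CPM (n = 3) in the libraries labelled Becn1f/f;Pf4-iCre, with overlapping groups (edgeR quasi-likelihood test with Benjamini-Hochberg adjustment, adjusted p = 0.94). Reads of floxed and unfloxed exons are added up in these counts, so the genotype is given as labelled throughout. The 18 MK and platelet markers, of which none was at 0 in all libraries, took 0.0299% to 0.0411% of counts, with Itga2b, the CD41 chain, at 142 to 187 CPM and Pf4 at 2.08 to 6.73 CPM. Of 16 tested MK markers 6 were higher and 10 lower in the labelled libraries, and Pf4 was the only DEG (log2 fold change -1.01 ± 0.29 SE, adjusted p = 0.42 by the same edgeR test with Benjamini-Hochberg adjustment). The 18 neutrophil markers took 1.2% to 1.96% and the 21 erythroid markers 0.0412% to 0.0835%, so that the label MK describes the sort and not the make-up of the RNA. Becn1f/f replicate 1 had the highest sum of the MK and platelet markers, at 411 CPM. It also had the highest sums of neutrophil, erythroid, T and NK cell, and mast cell, basophil and eosinophil markers.

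Of the 9 genes, 8 were lower in the libraries labelled Becn1f/f;Pf4-iCre and 1, Cpox, was higher. The erythroid ALA synthase Alas2 was the only one to pass the thresholds for a differentially expressed gene (DEG), a change of at least 1.5-fold with an unadjusted P under 0.05, and it fell to 64.3% of the Becn1f/f mean. Alas1 was at 73.8%, with an unadjusted P under 0.05 but less than 1.5-fold. The other 7 had an unadjusted P above 0.05, and none of the 9 had an adjusted p under 0.05 in edgeR.

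The 9 genes were set against all 12256 tested genes, of which 54.5% were lower in the labelled libraries, with a median log2 fold change of -0.021. The median of the 9 genes was -0.14. DEGs in either direction made up 2.3% of tested genes and lower DEGs 0.938%, against 1 of 9 here. Genes with an unadjusted P under 0.05 made up 6.31%, against 2 of 9, and those with an adjusted p under 0.05 made up 0.0408% in edgeR, against 0 of 9 (0 of 9 in DESeq2 too). With 9 genes, 1 gene more or less moves such a share past the background, and no test was run over the group.

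Alas2 makes the ALA synthase on which hemoglobin synthesis depends. It was at 20.2, 12.9 and 14.9 CPM in Becn1f/f replicates 1, 2 and 3 and at 6.83, 13.5 and 10.5 CPM in Becn1f/f;Pf4-iCre replicates 1, 2 and 3, from 322, 224 and 264 against 114, 224 and 177 counts. The highest value was Becn1f/f replicate 1 and the lowest Becn1f/f;Pf4-iCre replicate 1, and the groups overlapped, since Becn1f/f;Pf4-iCre replicate 2 lay above Becn1f/f replicate 2. The log2 fold change was -0.64 ± 0.25 (SE; 95% interval -1.17 to -0.10). Its adjusted p was 0.69 (edgeR quasi-likelihood test, Benjamini-Hochberg), from an unadjusted P of 0.024. Those same 2 libraries decide the call. Without Becn1f/f replicate 1 the log2 fold change was -0.43, without Becn1f/f;Pf4-iCre replicate 1 it was -0.41, and neither passed the DEG thresholds. After offsets for GC content and transcript length it was -0.56, with an unadjusted P of 0.083.

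Alas1 encodes the housekeeping ALA synthase, whose amount sets the rate of heme synthesis outside the erythroid lineage. Its levels were 137, 124 and 181 CPM in Becn1f/f and 96.1, 94.5 and 136 CPM in the labelled libraries. Replicates 1 and 2 of the labelled group lay below every Becn1f/f library, and replicate 3 lay within the Becn1f/f range. The log2 fold change was -0.44 ± 0.18 (SE; 95% interval -0.84 to -0.04). Its adjusted p was 0.74 (same edgeR test, Benjamini-Hochberg), from an unadjusted P of 0.033. After the GC and length offsets the log2 fold change of Alas1 was -0.37, with an unadjusted P of 0.061 in edgeR. Single libraries also moved it, both ways. Without Becn1f/f;Pf4-iCre replicate 3 it was -0.63 and passed the DEG thresholds, without Becn1f/f replicate 3 it was -0.26 with an unadjusted P of 0.17, and without Becn1f/f;Pf4-iCre replicate 1 or 2 it was -0.35 with an unadjusted P of 0.12. Alas2 relative to Alas1, as the difference of their log2 CPM, was -3.21 ± 0.43 in Becn1f/f and -3.44 ± 0.55 in the labelled libraries (SD, n = 3 each), a difference of -0.23 (two-sided exact permutation test, p = 0.5, where 0.1 is the smallest that 3 against 3 can give). That difference was 0.0 without Becn1f/f replicate 1, -0.42 without Becn1f/f replicate 3, -0.04 without Becn1f/f;Pf4-iCre replicate 1, -0.54 without replicate 2 and -0.1 without replicate 3 of the labelled group.

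**Figure D1:**
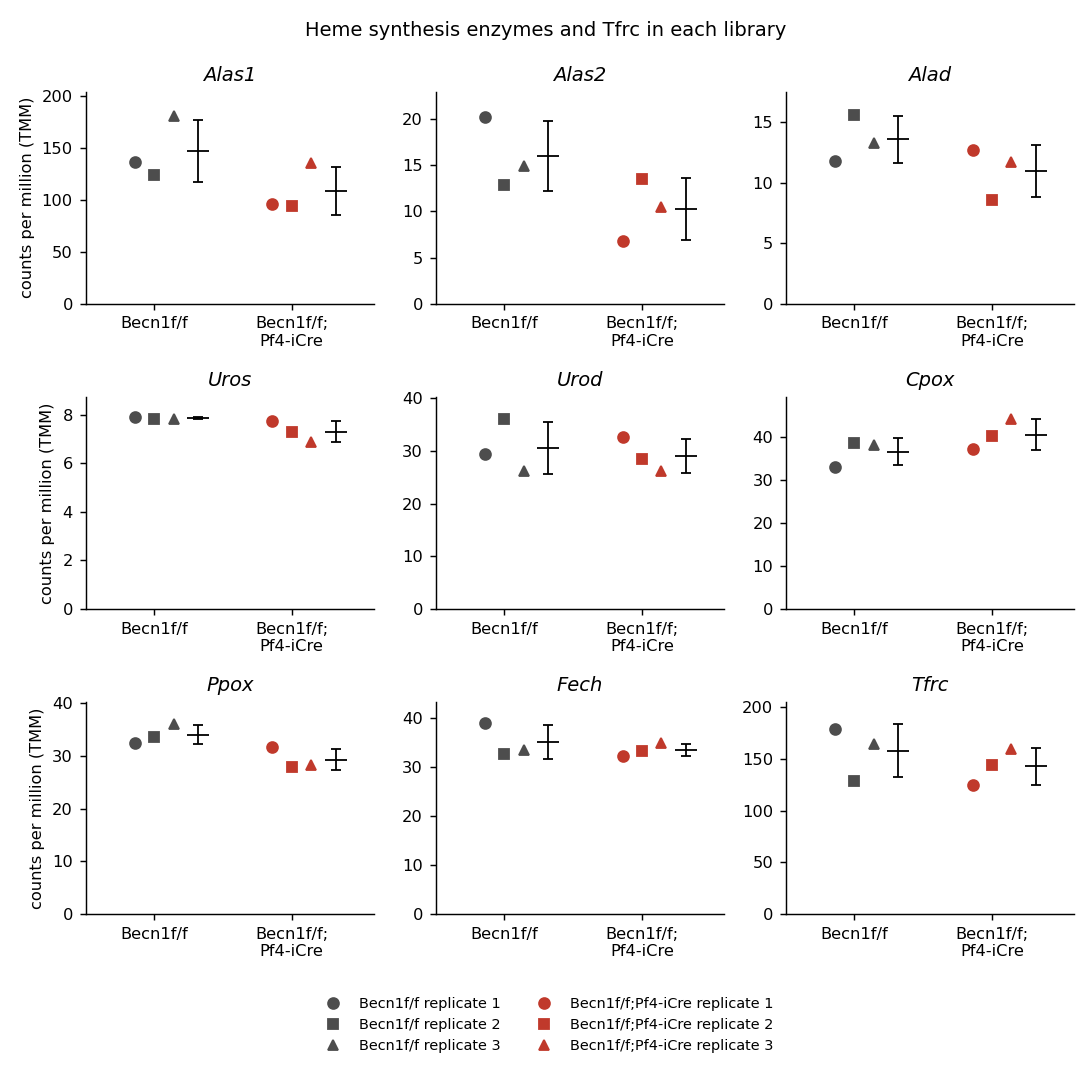
CPM after TMM scaling (vertical axes from 0) of the 9 genes in the 3 Becn1f/f libraries (gray) and the 3 libraries labelled Becn1f/f;Pf4-iCre (red), with symbols for replicate number and a black bar for the mean ± SD. Alas2 ran from 6.83 to 20.2 with overlapping groups, and Uros and Ppox were the 2 genes whose groups did not overlap.

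Of the cytosolic enzymes, Alad, which joins 2 ALA molecules into porphobilinogen, was at 11.8, 15.6 and 13.3 CPM in Becn1f/f and 12.7, 8.56 and 11.7 CPM in the labelled libraries. Becn1f/f;Pf4-iCre replicate 1 lay above Becn1f/f replicate 1, so the groups overlapped (log2 fold change -0.30 ± 0.19 SE; 95% interval -0.72 to 0.11). It was -0.15 without Becn1f/f;Pf4-iCre replicate 2 and -0.19 without Becn1f/f replicate 2 or after the GC and length offsets, and in limma on filtered FPKM its unadjusted P was 0.049 or 0.048, by pseudocount. Uros closes the porphyrin ring into uroporphyrinogen III. Its 3 Becn1f/f libraries were nearly equal at 7.9, 7.82 and 7.85 CPM, and the labelled ones, at 7.73, 7.3 and 6.89 CPM, were all lower, to 93.0% of the mean. This small difference did not exceed the spread that edgeR allows at this level (log2 fold change -0.10 ± 0.17 SE; 95% interval -0.48 to 0.27). Urod, which trims the side chains of uroporphyrinogen, was at 29.5, 36.1 and 26.2 CPM in Becn1f/f and 32.6, 28.4 and 26.2 CPM in the labelled libraries, with full overlap (log2 fold change -0.07 ± 0.16 SE; 95% interval -0.42 to 0.27). Its direction turned to 0.02 with GC content and length taken out and to 0.06 without Becn1f/f replicate 2.

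The last 3 enzymes work in the mitochondrion. Cpox, which makes protoporphyrinogen, was at 33.1, 38.6 and 38.3 CPM in Becn1f/f and 37.2, 40.3 and 44.4 CPM in the labelled libraries. It was the only one of the 9 with a higher mean in the labelled group, and its interval included 0 (log2 fold change 0.15 ± 0.14 SE; 95% interval -0.15 to 0.45). Ppox, which oxidizes that product to protoporphyrin, was at 32.5, 33.5 and 36.1 CPM in Becn1f/f and 31.6, 27.9 and 28.2 CPM in the labelled libraries. All 3 labelled libraries lay below all 3 Becn1f/f libraries (log2 fold change -0.22 ± 0.13 SE; 95% interval -0.51 to 0.07), and after the GC and length offsets the value was -0.12. Fech, the ferrochelatase that adds the iron, was at 39, 32.7 and 33.6 CPM in Becn1f/f and 32.2, 33.4 and 34.9 CPM in the labelled libraries. Its log2 fold change was -0.07 ± 0.13 SE (95% interval -0.36 to 0.23), and without Becn1f/f replicate 1 it was 0.02.

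For Uros and Ppox the groups did not overlap (exact permutation test, two-sided, p = 0.1 each, the smallest possible), and both were lower. Across all tested genes 10.6% had groups that did not overlap and 5.18% were lower in that way, against 2 of 9 here. For the enzymes after ALA synthase the adjusted p by edgeR, Benjamini-Hochberg, lay between 0.88 for Alad and Ppox and 0.98 for Uros, Urod and Fech.

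Tfrc, the receptor that carries transferrin-bound iron into the cell, was at 179, 129 and 164 CPM in Becn1f/f and 125, 144 and 160 CPM in the labelled libraries. Becn1f/f replicate 1 was highest and Becn1f/f;Pf4-iCre replicate 1 lowest, as for Alas2, and the groups overlapped widely. The log2 fold change was -0.14 ± 0.16 (SE; 95% interval -0.48 to 0.20; adjusted p = 0.96, edgeR quasi-likelihood test with Benjamini-Hochberg adjustment). It was -0.03 without Becn1f/f replicate 1, -0.05 without Becn1f/f;Pf4-iCre replicate 1, -0.27 without Becn1f/f replicate 2 and -0.23 without Becn1f/f;Pf4-iCre replicate 3. The Tfrc transcript is poor in GC (percentile 4.46 of tested genes), and log2 fold changes were lower at higher GC content across genes (Spearman -0.354, a description over genes, which are not replicates). After the GC and length offsets, Tfrc stood at -0.28 ± 0.11 with an unadjusted P of 0.029 and an adjusted p of 0.56 in edgeR, still under 1.5-fold.

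**Figure D2:**
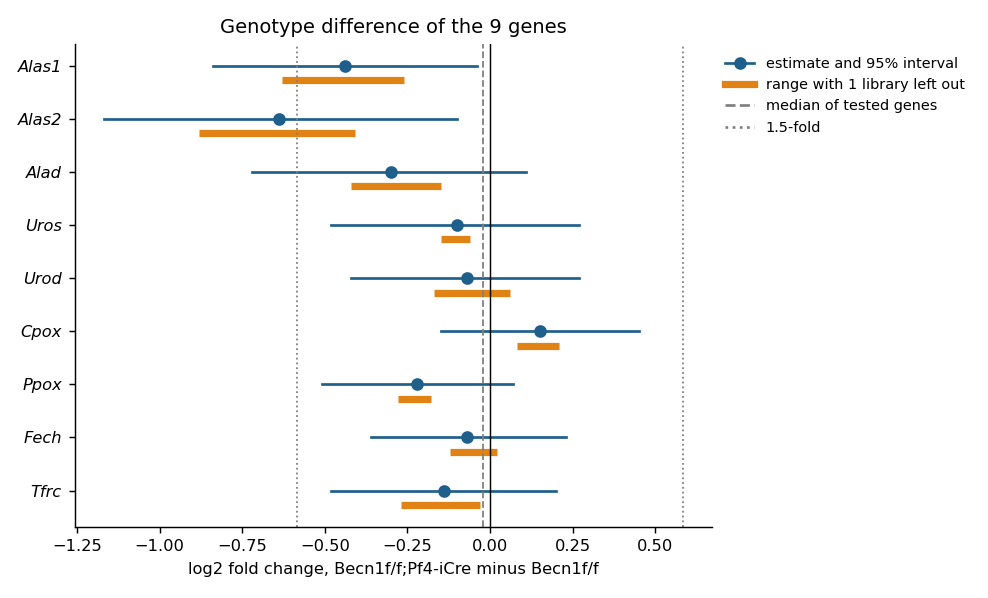
Log2 fold change of each gene (horizontal axis, libraries labelled Becn1f/f;Pf4-iCre minus Becn1f/f) with its 95% interval from edgeR (blue) and the range of estimates with 1 of the 6 libraries left out (orange). Alas2 at -0.64 and Alas1 at -0.44 are the 2 genes whose intervals do not reach 0, and with a library left out Alas2 ran from -0.88 to -0.41.

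Levels can be compared between genes only per transcript length, so FPKM, in which fragments are scaled for transcript length and library size, is used here. Alas1 had the highest mean over the 6 libraries at 53.8 FPKM and led in every library. It was followed by Tfrc at 32.6, Urod at 26.6, Ppox at 21.3, Cpox at 13.5, Fech at 13.1, Alad at 8.77, Alas2 at 7.94 and Uros at 5.68 FPKM. Neighbours in this order that did not overlap over the 6 libraries were Alas1 over Tfrc, Ppox over Cpox, and Fech over Alad. Tfrc and Urod overlapped, as did Urod and Ppox, Cpox and Fech, Alad and Alas2, and Alas2 and Uros. The housekeeping Alas1 exceeded the erythroid Alas2 in FPKM by 4.7, 6.71 and 8.44 times in Becn1f/f and by 9.82, 4.84 and 8.94 times in the labelled libraries. Alas1 was thus the higher of the pair in all 6 libraries, and the groups overlapped in this ratio.

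**Figure D3:**
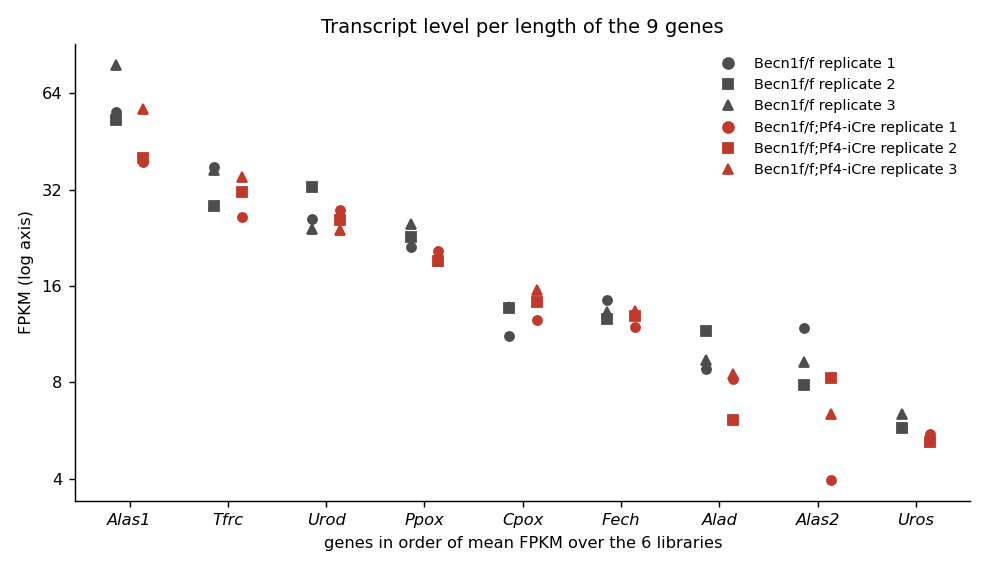
FPKM (log axis) of the 9 genes in each of the 6 libraries, ordered by the mean over all libraries, with the genotypes side by side. Alas1 is highest in every library, and Alas2 spreads from 3.97 to 11.86 FPKM.

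The members also differed in how much they varied among replicates. As the SD over the mean of CPM, Alas2 varied by 23.6% in Becn1f/f and 32.5% in the labelled libraries, Alas1 by 20.3% and 21.4%, and Ppox by 5.34% and 7.08%. The median over tested genes at 5 to 200 CPM was 12.9%. The 2 ALA synthases had the largest spread within each genotype among the 9 genes. In the fit of all libraries they also had the largest differences between genotypes, but without Becn1f/f replicate 3 Alad (-0.32) exceeded Alas1 (-0.26), and without Becn1f/f;Pf4-iCre replicate 1 Alad (-0.42) exceeded both Alas2 (-0.41) and Alas1 (-0.35).

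Erythroid markers were measured in the same libraries because Alas2 is restricted to that lineage. All 19 tested erythroid markers were lower in the libraries labelled Becn1f/f;Pf4-iCre, 9 of them as DEGs (Ank1, Car1, Ermap, Hba-a1, Kel, Rhag, Rhd, Slc4a1 and Trim10), with a median log2 fold change of -0.65. In fits without 1 library, added after the data were seen, the DEGs numbered 6 to 12, with 7 and a median of -0.45 without Becn1f/f replicate 1 and 6 and -0.53 without Becn1f/f;Pf4-iCre replicate 1. Their summed level was 533 to 835 CPM in Becn1f/f and 412 to 531 CPM in the labelled libraries, and none of the 21 was at 0 in all libraries. Slc4a1, the band 3 anion exchanger of the red cell membrane, fell from 30.9 ± 4.96 to 13.6 ± 3.55 CPM (SD, n = 3). Hba-a1, an alpha globin gene with a near-identical copy that can share its reads, fell from 180 ± 40.6 to 120 ± 11.2 CPM. Hbb-bs, a beta globin gene with the highest mean FPKM of the list, was at 236 ± 71.8 and 169 ± 23.5 CPM, was not a DEG and had overlapping groups. In bulk RNA, fewer erythroid cells in the sort and less of these RNAs per cell cannot be told apart, for Alas2 as for the markers.

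The mean log2 CPM of the 19 markers was 3.08 ± 0.15 in Becn1f/f and 2.35 ± 0.34 in the labelled libraries. Relative to that mean, Alas2 stood at 1.12, 0.77 and 0.79 in Becn1f/f and at 0.81, 1.18 and 0.87 in the labelled libraries, on the log2 scale. The difference between genotypes was 0.06 (exact permutation test, two-sided, p = 0.5), less than the SD of 0.20 within each genotype. Tfrc stood at 4.27, 4.09 and 4.25 relative to the markers in Becn1f/f and at 5.0, 4.59 and 4.8 in the labelled libraries. Here the groups did not overlap, with a difference of 0.59 (exact permutation test, two-sided, p = 0.1, the smallest possible). Over the same libraries the mean of the markers differed by -0.73 and the fitted log2 fold change of Tfrc was -0.14. The other enzymes, compared in this way after the data were seen, also stood higher against the markers in the labelled libraries, by 0.29 for Alas1, 0.41 for Alad, 0.62 for Uros, 0.66 for Urod, 0.88 for Cpox, 0.51 for Ppox and 0.66 for Fech. The groups did not overlap for Uros, Cpox, Ppox and Fech, so Tfrc shared this position with most of the enzymes. The mean of the markers, which is subtracted from every gene, itself differed by -0.73 with no overlap. A gene equal in both genotypes would therefore also stand higher against the markers in the labelled libraries. These positions thus carry the difference of the markers. How many of all tested genes do not overlap on this scale was not counted.

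**Figure D4:**
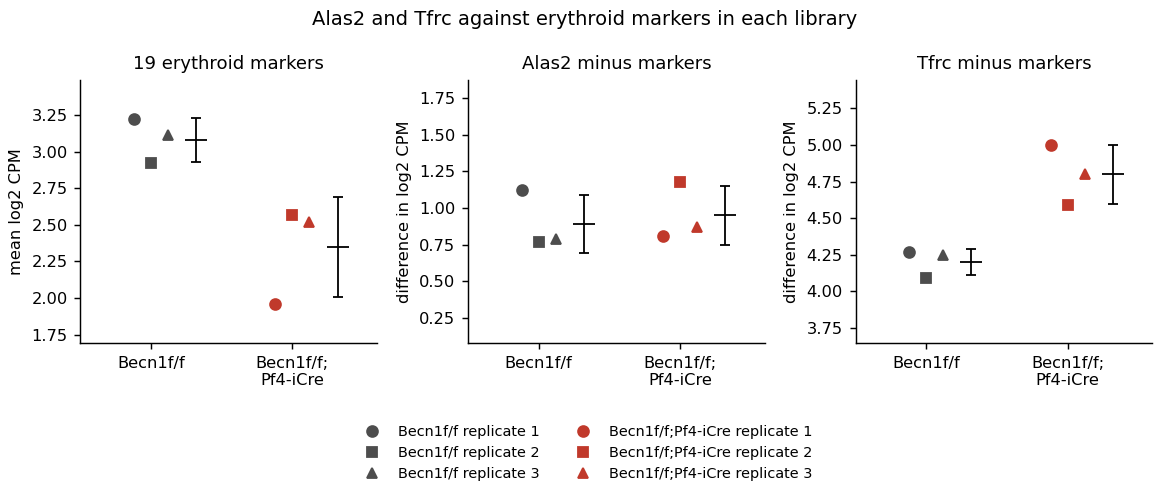
Mean log2 CPM of 19 erythroid markers (left) and log2 CPM of Alas2 (middle) and Tfrc (right) minus that mean, in each library, with the mean ± SD in black. The axes span equal ranges, the markers were at 3.08 and 2.35, Alas2 minus markers was 0.89 and 0.95, and Tfrc minus markers was 4.2 and 4.8.

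Marker lists of other cell types were read in the same libraries. Of 11 tested macrophage markers 10 were higher, 3 of them as DEGs, with sums of 787 to 836 CPM in Becn1f/f and 848 to 1038.7 CPM in the labelled libraries. These were Mrc1, Cd163 and C1qc, named after their values were seen, with log2 fold changes of 1.26 ± 0.19, 0.70 ± 0.2 and 0.80 ± 0.36 (SE). Their adjusted p was 0.057, 0.41 and 0.78 (edgeR, Benjamini-Hochberg), and C1qc rests on 17 to 85 counts a library. Csf1r, the most abundant macrophage marker by FPKM, was at 0.26 with overlapping groups. Cd163 is the macrophage receptor that takes up hemoglobin bound to haptoglobin. Of 18 tested neutrophil markers 16 were lower, with sums of 14721.2 to 19567.2 and 11955.6 to 15276 CPM. Of the B lineage markers 10 of 11 were lower, with sums of 184 to 308 and 185 to 240 CPM, and of the mast cell, basophil and eosinophil markers 8 of 10, with sums of 5123.6 to 10381.8 and 4014.1 to 6416.7 CPM. Mmp9 of the neutrophil list and Igll1 of the B lineage list, also named after their values were seen, passed the DEG thresholds as lower. No mast cell, basophil or eosinophil marker passed. Over all tested genes 2.3% were DEGs. Of 14 proliferation genes 11 were lower and 0 passed the DEG thresholds (0 had an unadjusted P under 0.05), with sums of 3971.6 to 4308.7 and 3943.9 to 4385.8 CPM. None of these lists held a gene at 0 in all libraries. Their part in the values of the 9 genes was not tested.

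The neighbouring pathways were read from a list of 63 genes of heme and iron handling, of which 60 were tested. In the labelled libraries 21 were higher and 39 lower, against 54.5% lower over all tested genes, the median log2 fold change was -0.06, and 1 passed the DEG thresholds, against 2.3% of all tested genes. This was Klf1, the erythroid Krüppel-like factor, at 1.53 ± 0.355 CPM in Becn1f/f and 0.797 ± 0.335 CPM in the labelled libraries (log2 fold change -0.94 ± 0.38 SE; adjusted p = 0.71 by edgeR, Benjamini-Hochberg). These are few counts, and the call was lost without Becn1f/f replicate 2 or 3 or without Becn1f/f;Pf4-iCre replicate 2. Genes with an unadjusted P under 0.05 numbered 7 of 60, against 6.31% of all tested genes, and none had an adjusted p under 0.05 in edgeR or in DESeq2.

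Among genes of iron uptake, storage and export 3 of 13 were higher and 10 lower. Ftl1, the ferritin light chain and the most abundant of them, was at 1719.8 ± 301 and 1607.9 ± 233 CPM (log2 fold change -0.10 ± 0.17 SE). All 3 tested genes of the iron regulatory proteins were higher, none as a DEG, and Fbxl5, which marks iron regulatory protein for degradation when iron is plentiful, was at 75.8 ± 7.86 and 90.2 ± 12.4 CPM. Of 16 genes of mitochondrial iron import and iron-sulfur clusters 6 were higher and 10 lower, with the chaperone Hspa9 at 263 ± 9.03 and 231 ± 22.5 CPM.

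Carriers of heme and its precursors held 3 higher and 6 lower of 9, with a median of -0.23, and Tmem14c, which moves protoporphyrinogen into the mitochondrial matrix, was at 71.8 ± 14.3 and 69.0 ± 9.41 CPM. Of 6 genes that control ALA synthase or ferrochelatase 2 were higher and 4 lower, and Eif2ak1, the heme-regulated kinase that slows translation when heme is short, was at 109 ± 4.38 and 110 ± 2.60 CPM. Heme degradation had 3 higher of 4, with the constitutive heme oxygenase Hmox2 at 57.9 ± 3.72 and 55.5 ± 1.69 CPM. In the pair of genes that turn heme into heme a, Cox15 was at 34.7 ± 6.26 and 35.4 ± 4.44 CPM. None of the genes named from these groups passed the DEG thresholds.

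All 7 genes listed as erythroid transcription factors had negative log2 fold changes, from -0.94 to -0.05 with a median of -0.10. Over all tested genes 54.5% were lower. Klf1 alone passed the DEG thresholds. MKs share several such factors, so the list is not specific to erythroid cells. Nfe2, the most abundant, which is also needed for platelet release, was at 134 ± 17.5 and 125 ± 8.76 CPM. Gata1, named here after its values were seen, was at 21.9, 15.9 and 19.6 CPM in Becn1f/f and 13.8, 13.5 and 14.8 CPM in the labelled libraries, with no overlap (log2 fold change -0.44 ± 0.16 SE; adjusted p = 0.60, edgeR quasi-likelihood test with Benjamini-Hochberg adjustment). Groups did not overlap in 10.6% of all tested genes, and 5.18% were lower in that way. Motifs of the kinds that GATA1 and KLF1 bind are marked in the Alas2 promoter above and were also found in windows of other members. Any link between these factors and the level of Alas2 was not tested.

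**Figure D5:**
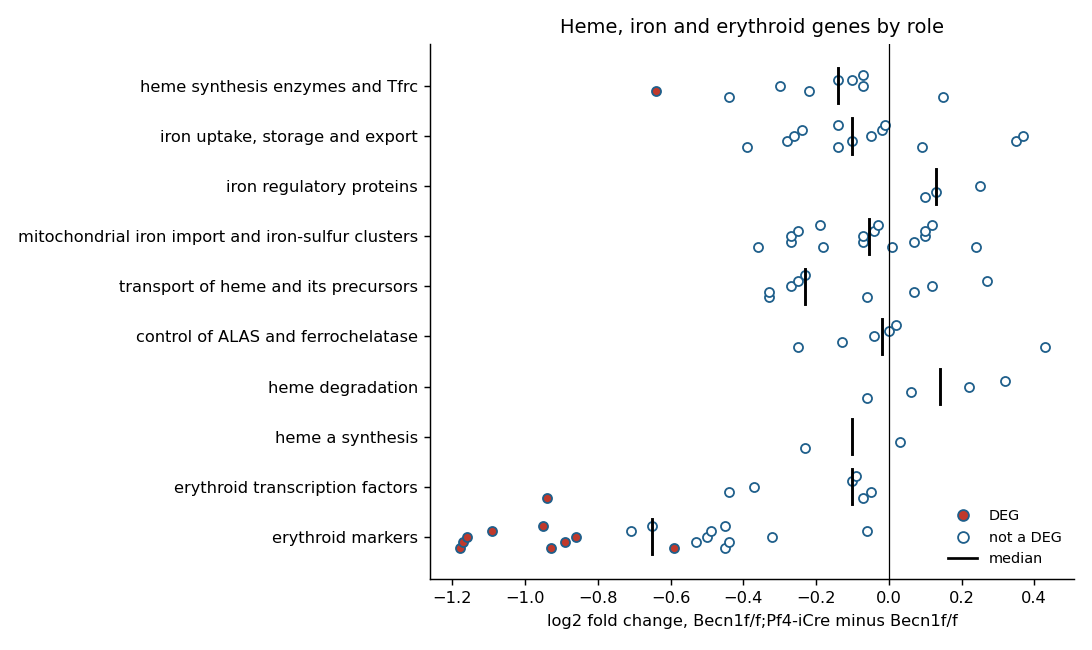
Log2 fold changes (horizontal axis, libraries labelled Becn1f/f;Pf4-iCre minus Becn1f/f) of the 9 genes, the 60 tested heme and iron handling genes by role, and the 19 tested erythroid markers, with DEGs filled and the median of each group as a bar. The erythroid markers centre on -0.65, the 9 genes on -0.14, and Alas2 lies among the markers.

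The genes whose course over the 6 libraries was closest to that of a member were found by the root mean square difference of log2 CPM after centring each gene on its own mean. For Alas2 these were Igf2bp2 (0.051), Tmem178 (0.108), Carmil3 (0.112), Cd160 (0.16) and Gm13420 (0.169), against 0.479 for the size of the course of Alas2 itself. All 5 lay between 0.42 and 1.63 CPM, where counting error is large, and none is an erythroid marker of the list used. For Tfrc they included Mphosph10 (0.033), Atp8b4 (0.05), Myb (0.051) and Serpine2 (0.052), against 0.188 for Tfrc itself. Myb, a transcription factor of hematopoietic progenitors, was at 252, 180 and 235 CPM in Becn1f/f and 168, 208 and 242 CPM in the labelled libraries, highest and lowest in the same libraries as Tfrc. Among the 9 genes themselves the closest pair was Uros and Ppox (0.08), and the farthest was Alas2 and Alad (0.57). Of the 8 distances from Alas2 to the others the smallest was that to Tfrc (0.362).

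Annotated exons of other genes overlap some of the 9 on the opposite strand, and the sources used here do not say whether counting used strand. Apex2 shares 12.9% of the exon bases of Alas2 and B4galt3 17.5% of those of Ppox, and both were expressed at levels near those of their partners (means of 14.26 against 13.14 CPM and 33.0 against 31.65 CPM). Reads from the shared ends of these genes cannot be told apart without strand.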

How the data were processed

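RNA-seq of sorted MKs was analysed in 6 libraries, grouped by the genotype and replicate number in the sample titles. Per the labels and the study's methods, the authors removed low-quality reads and mapped the rest with HISAT; the submitters' processing notes also name Bowtie2 and the builds GRCm39 and mm39, and the counting tool is not given in the sources used here. For each of 16579 genes the authors deposited an estimated count, not whole for 10.3% to 11.3% of genes in a library, and an FPKM value scaled for length and depth. The table's 16 other per-sample columns (4 from 1 library matching no sample mapped here) and 8 group means were not used.

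Counts were rounded, filtered with edgeR's expression filter, TMM-scaled and compared by the quasi-likelihood test of edgeR 4.0.16 (R 4.3.3), with genotype as the only term and Benjamini-Hochberg adjustment over 12256 genes. Thresholds for DEGs follow the study's methods. Standard errors are the fold change over the root of F. Single values were compared by exact permutation over libraries. Alternatives were DESeq2 1.42.0, limma 3.58.1 (voom, and log2(FPKM + 1) or log2(FPKM + 0.1)), other normalizations and filters, a replicate block, GC and length offsets, other thresholds and leaving out each library. The steps were tested on simulated data. GENCODE M21 and RefSeq sequences are on GRCm38, not the authors' build, so no position was taken from the counts.

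The 9 genes and all lists were chosen with earlier results of these data known. Genes named are the 9, DEGs and the most abundant gene (by FPKM) of each heme and iron sub-list and of the erythroid and MK lists, Becn1, Pf4 and Itga2b, and the 5 closest courses for Alas2 and Tfrc. Of the genes under this rule, 1 is not reported here. Alas2 rests on 114 to 322 and Alas1 on 1567 to 3210 counts a library, and the 3 libraries per genotype limit the precision.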

Additional observations from a re-analysis of the deposited data

How the results depend on the processing

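The count of 8 genes lower in the labelled libraries stayed at 7 or 8, and their median stayed between -0.19 and -0.09, in all 17 alternative fits. The count of DEGs among the 9 genes, 1 as reported, was 0 with limma on log2(FPKM + 1) and no filter, with GC content and length offsets, and with an adjusted p under 0.05, and it was 2 with an unadjusted P under 0.05 and no fold threshold. Leaving out 1 library gave 0 to 2. For the heme and iron list the count of 1 became 0 with DESeq2, with at least 10 counts in every sample, with limma on log2(FPKM + 1) with or without a filter, and with an adjusted p under 0.05, became 7 with an unadjusted P under 0.05 alone, and ran from 0 to 2 with 1 library left out, while its median ran from -0.11 to -0.03. Alas2 lost its call with limma and no filter on its unadjusted P (0.054, at a log2 fold change of -0.59) and with the offsets on both its unadjusted P (0.083) and its size (-0.56), and its adjusted p ranged from 0.45 to 0.97 over the alternatives. Urod turned to 0.02 with the offsets. With 1 library left out Urod ran from -0.17 to 0.06, Fech from -0.12 to 0.02, and Alas2 relative to erythroid markers from -0.05 to 0.18. The causes were not tested.

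Deviations of same-numbered libraries from their group means correlated at 0.068, -0.279 and 0.201. Those of differently numbered libraries ran from -0.297 to 0.241. With 3 libraries a group, these values cannot decide whether the replicate numbers pair the samples. With a replicate block 1 of the 9 genes and 296 of all tested genes passed the DEG thresholds, against 282 without it, and 19 against 5 had an adjusted p under 0.05. DESeq2 gave 77 of the latter. DEGs over all genes were 137 with limma on log2(FPKM + 1), 121 with no filter, and 225 to 410 with 1 library left out.

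With 3 libraries a genotype, the 95% interval of Alas2 reached from -1.17 to -0.10, so the size of its difference is poorly determined. The smallest difference detectable in a gene this variable was not computed.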

Other observations

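Genes of heme and iron handling other than Klf1 with an unadjusted P under 0.05 were Bach1, Trf, Glrx5, Slc25a39, Gata1 and Zfpm1, named after their values were seen. None of them reached 1.5-fold or an adjusted p under 0.05 (edgeR, Benjamini-Hochberg). Bach1, a repressor of heme oxygenase genes that heme inactivates, was at 228, 166 and 142 CPM in Becn1f/f replicates 1 to 3 and 262, 260 and 201 CPM in Becn1f/f;Pf4-iCre replicates 1 to 3. The groups overlapped through Becn1f/f replicate 1 (log2 fold change 0.43 ± 0.18 SE), and without that library Bach1 passed the DEG thresholds. Hmox1, the inducible heme oxygenase, also named after its values were seen, did not pass, at 41.7 ± 7.84 and 52.1 ± 6.09 CPM (SD, n = 3) with an unadjusted P of 0.071.

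Trf, the plasma iron carrier whose receptor Tfrc encodes, was at 131 ± 18.0 CPM in Becn1f/f and 169 ± 27.7 CPM in the labelled libraries (log2 fold change 0.37 ± 0.16 SE), with overlapping groups. Glrx5, a mitochondrial glutaredoxin of iron-sulfur cluster assembly, was at 31.2 ± 3.21 and 24.2 ± 1.83 CPM, with no overlap (log2 fold change -0.36 ± 0.14 SE). Slc25a39, a mitochondrial glutathione carrier, was at 55.4 ± 5.88 and 44.0 ± 6.07 CPM with overlapping groups. Zfpm1, a GATA1 cofactor, was at 47.5 ± 2.88 and 36.7 ± 7.95 CPM with no overlap (log2 fold change -0.37 ± 0.16 SE). Groups did not overlap in 10.6% of all tested genes.

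Of the other genes of the list with an IRE match in the 5′ UTR, also named after their values were seen, Fth1, the ferritin heavy chain, was at 1224.2 ± 403 and 1036.6 ± 249 CPM. The iron exporter Slc40a1 was at 30.1 ± 6.63 and 23.0 ± 5.61 CPM (log2 fold change -0.39 ± 0.21 SE). Both groups overlapped in each gene, with an unadjusted P of 0.33 and 0.091.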
